A study of Mus musculus with 12 samples.

Results

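The hepatic expression of 10 genes of fatty acid synthesis, elongation and desaturation was examined by RNA-seq in 12 male mouse livers. The genes were chosen by name: Srebf1, Acly, Acaca, Acacb, Fasn, Elovl6, Scd1, Elovl5, Fads1 and Fads2. All 10 were listed in both deposited count tables, which have 20093 genes in common, and all 10 passed the filter on low counts in every comparison. Each of the 4 groups held 3 livers, with 1 library per liver. Per the labels, every mouse was a C57BL/6N male of 4 to 6 months with both alleles of Elavl1 floxed (HuR flox/flox). Elavl1 encodes HuR, an RNA-binding protein that stabilises many mRNAs. HuRHep-/- mice received the virus AAV8-Tbg-Cre, and WT controls received AAV8-Tbg-null and so carried the floxed alleles too. The Tbg promoter drives Cre in hepatocytes, so the other cells of the liver keep HuR. Livers of each genotype came from mice on normal chow or from mice fed for 16 weeks with the HFCF diet, rich in fat, cholesterol and fructose, which held 40 kcal% fat, 2% cholesterol and 20 kcal% fructose. The study's methods instead describe, for the chow mice, a cross with albumin-Cre mice of another age, and the counts do not show which description holds. The chow and HFCF livers were deposited in separate count tables, so diet and table cannot be told apart. Library totals ran from 30071731 to 35949203 counts, and the replicates were numbered separate livers.

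Hepatocytes turn surplus carbohydrate into fatty acids in the cytosol. ATP citrate lyase (Acly) makes acetyl-CoA from citrate, acetyl-CoA carboxylases (Acaca and Acacb) carboxylate it to malonyl-CoA, and fatty acid synthase (Fasn) builds palmitate. Elovl6 lengthens palmitate to stearate, and stearoyl-CoA desaturase (Scd1) puts in the double bond that yields palmitoleate and oleate. Elovl5, Fads1 (delta-5 desaturase) and Fads2 (delta-6 desaturase) act on dietary polyunsaturated fatty acids. Srebf1 encodes SREBP1, the transcription factor that drives these genes in response to insulin and to the oxysterol receptor LXR, whereas its paralogue SREBP2 drives cholesterol synthesis and is shut off by sterols.

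Elavl1 itself did not follow the labels. It was at 30.9, 29.3 and 31 CPM (counts per 1000000, with library totals scaled by TMM factors) in the chow WT livers and at 42.8, 39.2 and 38.8 in the chow livers labelled HuRHep-/-. In HFCF it was at 23.9, 24.2 and 27.0 CPM in WT and at 32.4, 32.2 and 34.2 in the livers labelled HuRHep-/-. The whole-gene count was thus higher where the label says that the gene was deleted, by 0.41 ± 0.07 (SE) on the log2 scale in chow (adjusted p = 0.0219) and by 0.38 ± 0.07 in HFCF (adjusted p = 0.0327). Counts over a whole gene include exons outside the floxed part, so they do not measure the deletion, and every genotype direction given here rests on the labels alone.

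Most genes of the set lie on chromosomes 11 and 19. In the GENCODE annotation of GRCm38, Srebf1 spans chr11:60199089-60222581 on the minus strand, Acly chr11:100476353-100528000 on the minus strand, Fasn chr11:120805846-120824547 on the minus strand and Acaca chr11:84129672-84401651 on the plus strand. Scd1 lies at chr19:44394455-44407879 on the minus strand. Fads2 (chr19:10062765-10101746, minus) and Fads1 (chr19:10182888-10196877, plus) are neighbours that point away from each other. The remaining members are Elovl6 (chr3:129532355-129638495, plus), Acacb (chr5:114146535-114250761, plus) and Elovl5 (chr9:77917364-77984519, plus).

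Shared sequence can blur counts between genes. Of the 31-base words in the longest transcript, 5 members shared none with another gene, namely Acly, Acacb, Fasn, Elovl5 and Fads1. Scd1 shared 8.3% with other genes, of which Scd3 held the most (5.92%), and Scd3 had between 0 and 5 counts in any library beside at least 43271 for Scd1. Fads2 shared 0.769%, with Fads3, and Elovl6 7.06%. Acaca shared 56.8% of its words with Gm5182, which is listed in neither table, so the Acaca count may depend on how reads matching both were treated. Elovl6 shares 34 exon bases with the antisense gene Gm35986, at 56 to 272 counts per library, and Srebf1 shares 109 exon bases with Rai1 on the other strand, at 256 to 401 counts.

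Promoter sequence from RefSeq (GRCm38.p6, from 250 bases before to 50 after a transcription start) was available for 8 members, in 10 windows. It is shown because most members moved together with diet. No window was available for Scd1 or Fads1, so their promoters were not searched. Both strands were searched for 4 motifs. CCAAT, the binding sequence of NF-Y, a partner of SREBP, was found in 6 of the 10 member windows (those of Srebf1, Acly, Acacb, Fasn and Elovl5), and 37.4% of all 32851 promoter windows hold it. The E-box CACGTG was found in 1 of the 10, that of Elovl5, and in 7.15% of all windows. The sterol regulatory element core TCACNCCAC and the LXR response element (2 copies of AGGTCA in a row, 4 bases apart) were found in 0 member windows, against 1.24% and 0.0152% of all windows. The Fasn window holds 3 CCAAT matches, 2 of them overlapping, and the Elovl5 window holds 2. The sites of Srebf1, the E-box and both CCAAT sites of Elovl5, and the Fasn sites other than the 1 that overlaps the match at 62 bases are given below, 5′ to 3′ on the gene's strand with the motif in capitals (ATTGG is CCAAT on the other strand).
Fasn, chr11:120824625-120824645, minus strand, 90 bases before the start: gcgccgccATTGGgccaccga
Fasn, chr11:120824597-120824617, minus strand, 62 bases before the start: ctcggtgtCCAATtggtttcg
Srebf1, chr11:60210489-60210509, minus strand, 30 bases before the start of its downstream promoter: ggctgctgATTGGccatgtgc
Srebf1, chr11:60222735-60222755, minus strand, 166 bases before the start of its upstream promoter: gactgtctCCAATgcaagaca
Elovl5, chr9:77917196-77917217, plus strand, E-box 161 bases before the start: ccccgagaCACGTGaaccacag
Elovl5, chr9:77917286-77917306, plus strand, 71 bases before the start: gccccaggATTGGttccaagg
Elovl5, chr9:77917340-77917360, plus strand, 17 bases before the start: gggctcggATTGGctggccgc
A match describes these letters in this window and is not a measured binding site.

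Scd1 stood far above the other members in every group. Per kb of exon, its level was 1200 ± 406 CPM per kb (SD, n = 3) in chow WT livers and 3990 ± 201 in HFCF WT livers. Its reads alone made up 0.387%, 0.481% and 0.729% of all counts in the chow WT libraries and 2.12%, 1.79% and 2.1% in the HFCF WT libraries. The polyunsaturated chain enzymes followed in chow WT, with Elovl5 at 95.1 ± 27.6, Fads1 at 91.7 ± 9.37 and Fads2 at 63.0 ± 10.5 CPM per kb, and the first pair did not differ beyond their spread. Acly (23.2 ± 4.08) and Srebf1 (22.2 ± 6.58) lay within their spread of each other, as did Fasn (14.2 ± 3.93) and Elovl6 (13.7 ± 4.56). The carboxylases were lowest, with Acacb at 5.41 ± 1.53 and Acaca at 4.06 ± 0.454 CPM per kb. Scd1 remained first and Acaca last in all 4 groups, while Elovl5 moved from place 2 in both WT groups to place 4 in the chow livers labelled HuRHep-/- (52.6 ± 15.5 CPM per kb).

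**Figure D1:**
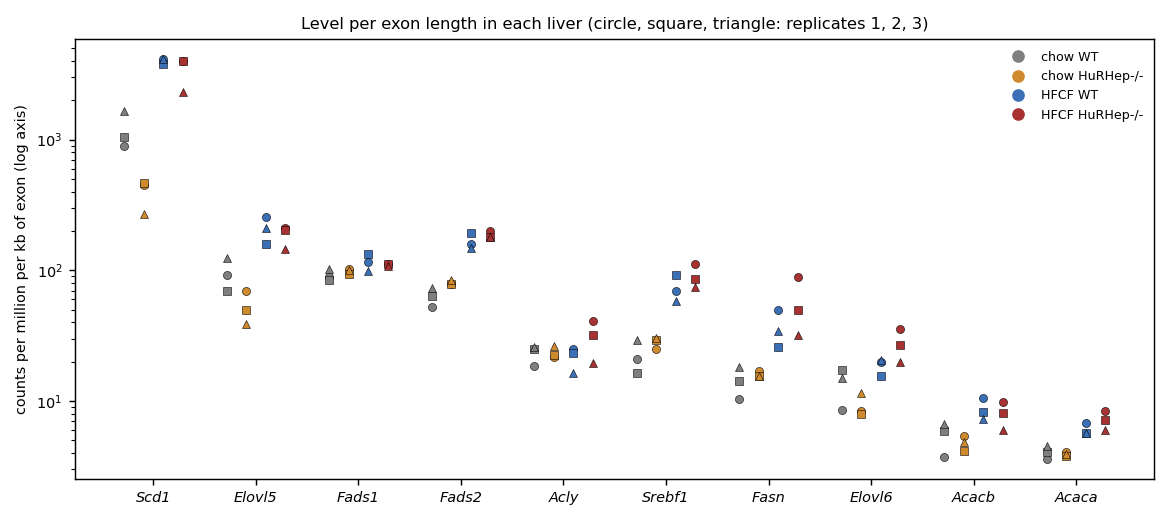
Level of each gene per kb of exon (CPM per kb, log axis) in each of the 12 livers, with colours for the 4 groups and symbols for replicates 1 to 3. Scd1 lies above the other 9 genes in every liver, and Acaca and Acacb are the lowest pair.

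In chow, the comparison of genotypes asks what loss of hepatocyte HuR does without a dietary load. Scd1 was lower in the livers labelled HuRHep-/-. It was at 4380, 5140 and 8140 CPM in the WT livers and at 2210, 2260 and 1330 CPM in those labelled HuRHep-/-. The groups did not overlap, and the difference was -1.59 ± 0.278 (SE) on the log2 scale, a level 3.01-fold lower (limma, adjusted p = 0.026). Scd1 was the 1 member of 10 called, that is with an adjusted p of at most 0.05 and a change of at least 1.5-fold, where 2.23% of all 13526 genes tested were called, 0.954% as lower and 1.28% as higher. The call was lost without chow WT replicate 1 (-1.78, adjusted p = 0.0503), chow WT replicate 3 (-1.33, 0.071), chow HuRHep-/- replicate 1 (-1.71, 0.0663) or chow HuRHep-/- replicate 2 (-1.72, 0.0909). The estimate stayed at or below -1.33 in each of the 6 fits that left out 1 liver.

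Elovl5 and Fads2 also had groups that did not overlap in chow, which 29.5% of all genes did, and neither was called. Elovl5, the elongase of polyunsaturated chains, was at 322, 245 and 438 CPM in WT and at 244, 176 and 136 in the livers labelled HuRHep-/-, where the highest liver lay just under the lowest WT liver. Its difference was -0.85 ± 0.25 on the log2 scale with an adjusted p of 0.0981. Fads2 was at 172, 210 and 241 CPM in WT and at 258, 260 and 277 in the other group, a difference of 0.37 ± 0.117 (adjusted p = 0.115).

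The genes of palmitate synthesis overlapped between genotypes in chow. Fasn was at 113, 155 and 199 CPM in WT and at 186, 169 and 170 in the livers labelled HuRHep-/-, which all lay inside the WT range (0.21, 95% confidence interval -0.21 to 0.63). Acly differed by 0.04 (-0.29 to 0.36), Acaca by -0.04 (-0.24 to 0.17) and Acacb by -0.13 (-0.62 to 0.35). The intervals of Acly and Acaca leave out a change of 1.5-fold in either direction, and that of Acacb does not. Srebf1, the transcription factor, was at 118, 91.8 and 165 CPM in WT and at 141, 165 and 172 (0.39, -0.05 to 0.84, adjusted p = 0.257). Elovl6 was at 55.2, 112 and 96.3 CPM and at 54.2, 51.2 and 74.0 (-0.51, -1.10 to 0.09), and Fads1 differed by 0.12 (-0.08 to 0.32).

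**Figure D2:**
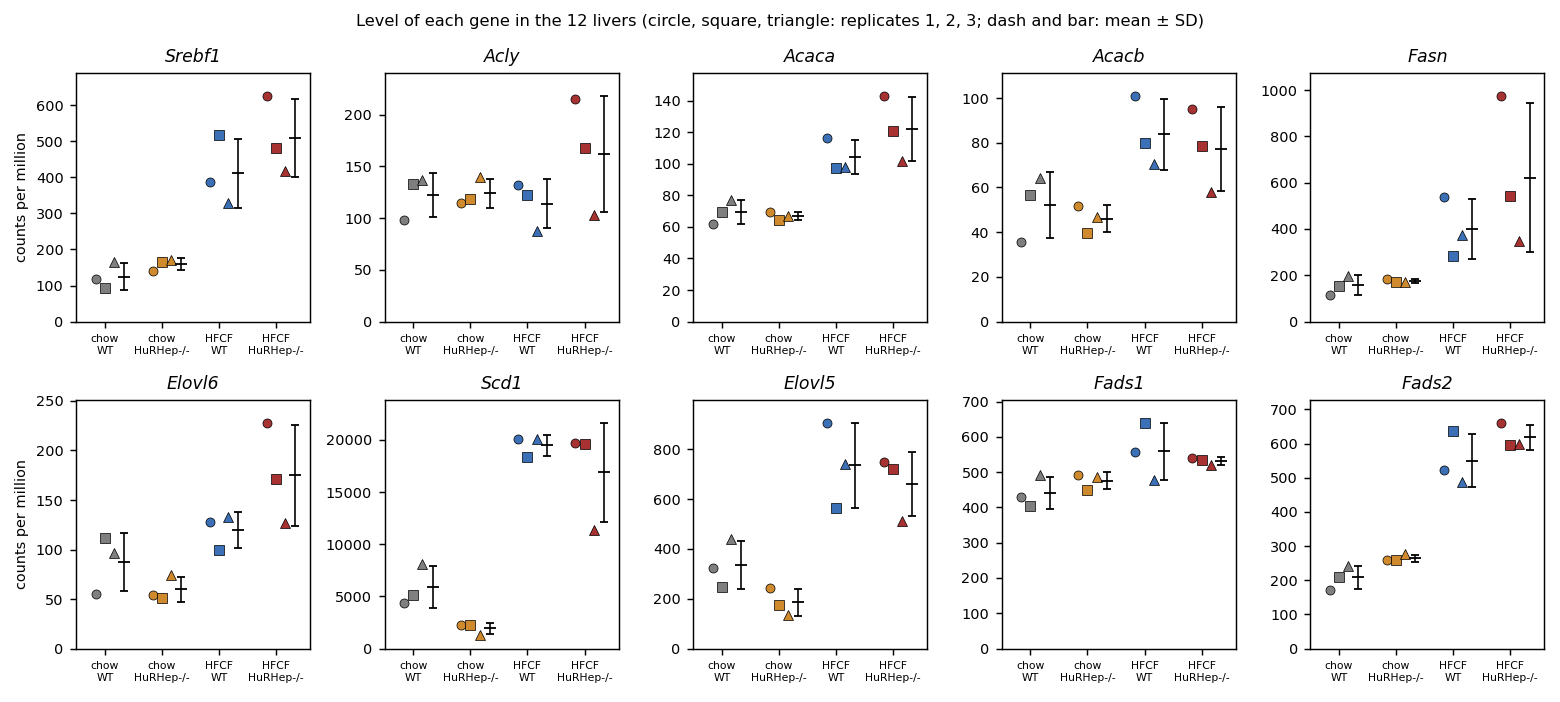
CPM of each of the 10 genes in each liver (circle, square and triangle for replicates 1, 2 and 3, which are not ordered), with the mean ± SD beside them and every axis starting at 0. In chow the Scd1 points of the livers labelled HuRHep-/- (1330 to 2260 CPM) lie under all WT points (4380 to 8140), and in HFCF all Scd1 points lie at or above 11400 CPM.

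In HFCF, the same comparison of genotypes gave no called member. The tool was limma on the 6 HFCF livers. An unadjusted p under 0.05 was found for 0 of 10 members, limma's voom weights also called 0, and 3.66% of all 14295 genes were called. Scd1 was at 20100, 18400 and 20100 CPM in WT and at 19700, 19600 and 11400 in the livers labelled HuRHep-/-. Replicate 3 of the second group was the low one, and the difference was -0.27 with a 95% confidence interval from -0.90 to 0.36. Elovl6 came closest to the threshold, at 128, 99.4 and 133 CPM in WT and 228, 171 and 127 in the livers labelled HuRHep-/- (0.50, -0.01 to 1.00, adjusted p = 0.173). Fasn was at 540, 285 and 373 CPM and at 975, 542 and 348 (0.54, -0.35 to 1.44). In the last of these groups the highest liver had 2.8 times the Fasn level of the lowest. No member had groups without overlap, while 36.8% of all genes did. The remaining estimates lay between -0.16 (Elovl5) and 0.45 (Acly).

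The HFCF diet raised most of the set in WT livers. In this comparison 6 of 10 members were called and all were higher, beside 6.17% of 14535 genes called higher and 3.24% called lower. Groups did not overlap for 7 members and for 37.6% of all genes. The median difference was 0.93 on the log2 scale for the members and 0.01 for all genes. Srebf1 rose from 118, 91.8 and 165 CPM in chow to 388, 516 and 328 CPM in HFCF, or 3.33-fold (1.73 ± 0.219, adjusted p = 0.000649). All 3 HFCF livers lay above all 3 chow livers.

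Scd1 rose with the diet in WT livers to 18400 to 20100 CPM, all above the chow maximum of 8140 (1.78 ± 0.287, 3.44-fold, adjusted p = 0.00192). Fads2 rose from 172, 210 and 241 CPM to 524, 636 and 489 (1.41 ± 0.122, 2.66-fold) and had the smallest adjusted p of the set, 9.28e-05. Elovl5 rose from 322, 245 and 438 CPM to 904, 562 and 739 (1.15 ± 0.257, 2.21-fold, adjusted p = 0.00891). These 3 enzymes elongate or desaturate, and each had non-overlapping groups.

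Of the palmitate pathway, Fasn and Acacb rose in WT livers. Fasn went from 113, 155 and 199 CPM to 540, 285 and 373 (1.35 ± 0.331, 2.55-fold, adjusted p = 0.0136). The call was lost without chow WT replicate 1 (1.14, adjusted p = 0.0597) or HFCF WT replicate 1 (1.11, 0.0536). Acacb, the carboxylase that also restrains mitochondrial fatty acid uptake, went from 35.7, 56.5 and 64.1 CPM to 101, 79.7 and 70.4 (0.71 ± 0.227, adjusted p = 0.0403). Its call was lost without chow WT replicate 1 (0.46, adjusted p = 0.153), HFCF WT replicate 1 (0.57, 0.138), HFCF WT replicate 2 (0.74, 0.0597), HFCF WT replicate 3 (0.83, 0.0501) or, in the shared fit, HFCF HuRHep-/- replicate 2 (0.71, 0.0551). It was also lost in the fit on the 6 WT livers (0.72, 0.0662). Acaca was just short of the fold limit, at 61.7, 69.1 and 77.2 CPM in chow and 116, 97.3 and 97.9 in HFCF (0.58 ± 0.12, adjusted p = 0.0058), and was called under 4 of 8 other settings. Fads1 also passed on adjusted p alone (0.34 ± 0.104, adjusted p = 0.0353), which 24.2% of all genes did. Elovl6 (0.50, -0.08 to 1.08) and Acly (-0.11, -0.63 to 0.41) did not pass.

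In the livers labelled HuRHep-/-, 8 of 10 members were called with diet and all were higher, beside 14.2% of 14535 genes called higher and 4.9% called lower. The diet comparisons of the genotypes have no liver in common. Groups did not overlap for 9 members and for 54.6% of all genes, and the median difference of the members was 1.37. Scd1 rose from 2210, 2260 and 1330 CPM to 19700, 19600 and 11400, which is 8.72-fold (3.12 ± 0.287, adjusted p = 7.02e-05). The chow levels from which it rose were those already below WT, and the HFCF levels overlapped WT. Elovl5 rose from 244, 176 and 136 CPM to 747, 721 and 513 (1.86 ± 0.257, 3.62-fold), and Fads2 from 258, 260 and 277 to 661, 597 and 598 (1.22 ± 0.122, 2.33-fold).

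Srebf1 rose from 141, 165 and 172 CPM to 626, 482 and 418 in these livers (1.66 ± 0.219, 3.16-fold, adjusted p = 0.000386). Fasn rose from 186, 169 and 170 CPM to 975, 542 and 348 (1.70 ± 0.331, 3.26-fold). The chow Fasn values were close together and the HFCF values far apart. Elovl6 rose from 54.2, 51.2 and 74.0 CPM to 228, 171 and 127 (1.53 ± 0.266, 2.89-fold, adjusted p = 0.00142), and Acaca from 69.7, 64.3 and 66.9 to 143, 121 and 102 (0.85 ± 0.12). Acacb rose from 51.9, 39.8 and 46.7 CPM to 95.3, 78.5 and 57.9 (0.72 ± 0.227, adjusted p = 0.0259). The Acacb call was lost without chow HuRHep-/- replicate 2 (0.62, adjusted p = 0.0865), chow HuRHep-/- replicate 3 (0.74, 0.0589), HFCF HuRHep-/- replicate 1 (0.56, 0.104) or HFCF HuRHep-/- replicate 2 (0.69, 0.07). Acly, the first enzyme of the pathway, was at 115, 118 and 140 CPM in chow and 215, 168 and 103 in HFCF (0.33, -0.19 to 0.85) and was called when HFCF HuRHep-/- replicate 3 was left out (0.62, adjusted p = 0.0358). Fads1 had groups apart but a small difference, at 492, 449 and 487 CPM in chow and 541, 535 and 520 in HFCF (0.16, -0.07 to 0.39). All 6 members called in WT livers were also called here.

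**Figure D3:**
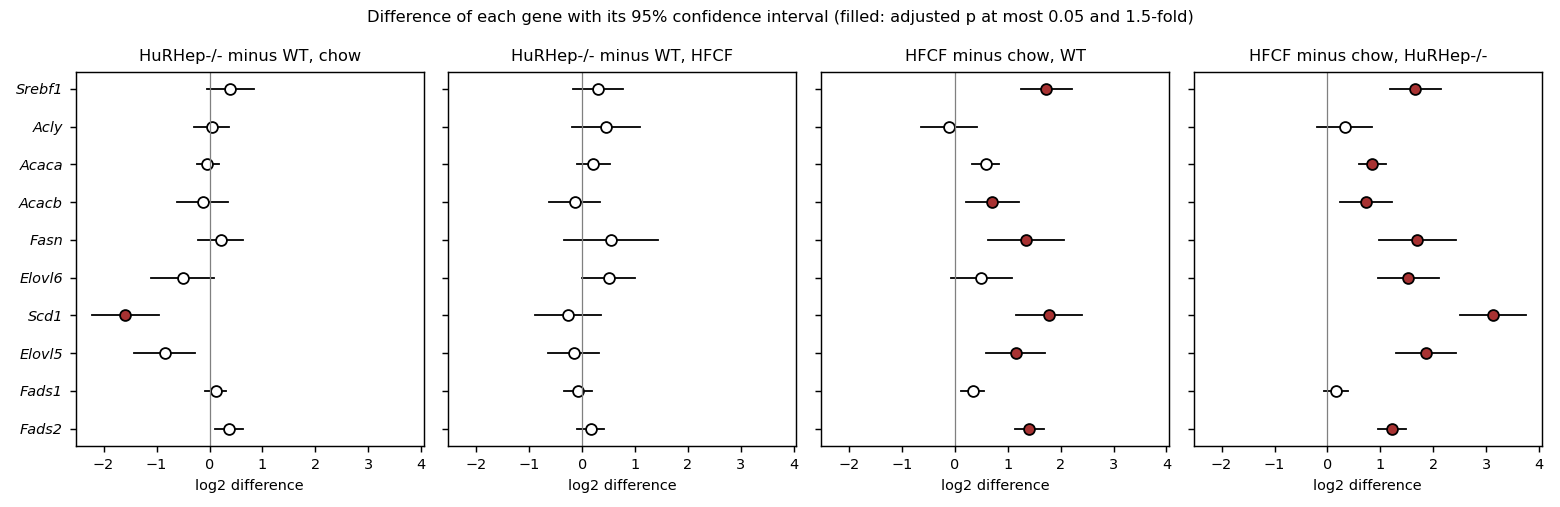
Log2 difference of each gene with its 95% confidence interval (x axis) for the genotype comparison in chow and in HFCF and for the diet comparison in each genotype, with filled points for genes called. Scd1 is filled and negative in chow (-1.59) and open in HFCF (-0.27), and most points of both diet panels are filled and positive, with Acly and Fads1 open in both.

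Whether the genotype difference depended on diet was tested directly over the 12 livers. With limma, 0 of 14535 genes were called for this interaction (0%), voom weights also gave 0, and 2083 genes had an unadjusted p under 0.05. Among the members, 2 had an unadjusted p under 0.05. The Scd1 interaction was 1.34 (95% confidence interval 0.46 to 2.23) with an unadjusted p of 0.00644 and an adjusted p of 0.208 in the limma fit, meaning that the HuRHep-/- minus WT difference was less negative in HFCF than in chow. Elovl6 had an interaction of 1.03 (0.20 to 1.85), with an unadjusted p of 0.0187 and an adjusted p of 0.265 in the same fit. Neither is shown to differ between diets after adjustment, and the intervals of Acly, Fasn and Elovl5 also reach past 1.00 on the log2 scale. Averaged over both diets, Scd1 was lower in the livers labelled HuRHep-/- by -0.92 ± 0.203 (adjusted p = 0.0096) and was the 1 member called lower, beside 1.84% of all genes. Fads2 passed on adjusted p alone (0.27 ± 0.0859, adjusted p = 0.0459), as 19.2% of all genes did. Elovl5 was not called (-0.50, adjusted p = 0.0739) but was when chow WT replicate 2 (-0.60, 0.0394), chow HuRHep-/- replicate 1 (-0.62, 0.0393) or HFCF WT replicate 2 (-0.59, 0.0496) was left out.

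Livers of 1 group differed from each other across the set. Among the HFCF livers labelled HuRHep-/-, replicate 1 was the highest of the 3 for all 10 members and replicate 3 the lowest for 9, the exception being Fads2. In chow WT, replicate 3 was the highest for 9 members and replicate 1 the lowest for 7. The remaining groups were mixed, with the highest place going to 1 liver for at most 6 members. The ratio of the highest to the lowest liver within a group had a median over members of 1.77 in chow WT, 1.22 in chow HuRHep-/-, 1.39 in HFCF WT and 1.57 in HFCF HuRHep-/-. Fasn and Acly spread most in the last group (2.8 and 2.09) and Fads1 least (1.04). Members measured in the same liver share its library, so these places are a description and not independent counts.

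**Figure D4:**
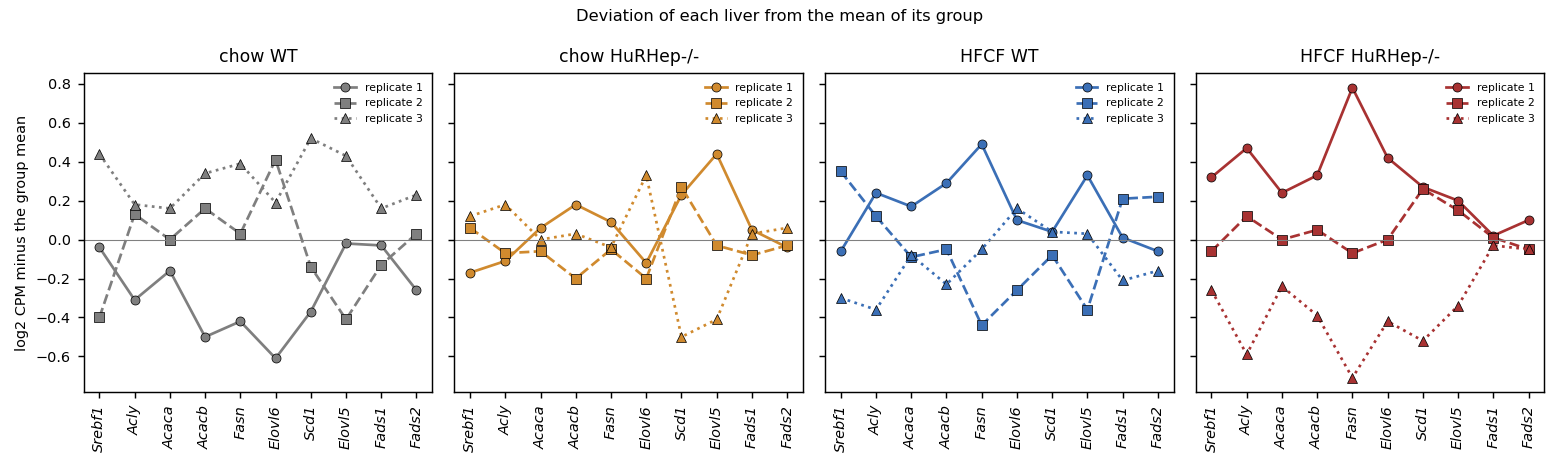
Log2 CPM of each gene minus the mean of its group (y axis) for replicates 1, 2 and 3 of each group, with lines joining the genes of 1 liver. In HFCF HuRHep-/- the line of replicate 1 lies above zero for all 10 genes and that of replicate 3 below it, and in chow WT replicate 3 lies above the mean throughout.

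Few regulators of the pathway passed the test. In both genotype comparisons 0 of 23 listed regulators were called by limma, with 5 at an unadjusted p under 0.05 in chow and 9 in HFCF. Mbtps2, which encodes a protease that releases SREBPs, differed by 0.38 (adjusted p = 0.0867) in chow, and Rxra, the partner of LXR, by 0.25 (adjusted p = 0.0873). In HFCF, Thrsp differed by -0.53 (adjusted p = 0.0605) and Mid1ip1, an activator of acetyl-CoA carboxylase, by 0.66 (adjusted p = 0.0884). With diet, Thrsp, a lipogenic gene that responds to thyroid hormone and carbohydrate, rose in WT livers (283 to 700 mean CPM, 1.40 ± 0.397, adjusted p = 0.0256) and in livers labelled HuRHep-/- (218 to 490, 1.36 ± 0.397, adjusted p = 0.0188). In the latter, Nfya, a subunit of NF-Y, rose by 0.84 ± 0.117, while Insig1 (-0.94 ± 0.227), which retains SREBP in the endoplasmic reticulum, and Scap (-0.72 ± 0.13), which escorts it to the Golgi, fell. That made 1 of 23 called in WT, beside 9.41% of all genes, and 4 of 23 in livers labelled HuRHep-/-, beside 19.1% of all genes, so neither share stood above the background. The list medians were -0.01 and -0.12.

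A list of 11 genes around carbon and NADPH supply also held the citrate carrier Slc25a1 and Mlycd, which breaks down malonyl-CoA. Of the 11, 1 was called in chow (2.23% of all genes) and 0 in HFCF (3.66%). With diet, 2 were called in WT (9.41%) and 3 in livers labelled HuRHep-/- (19.1%). In chow, Acss2, which makes acetyl-CoA from acetate, was lower in the livers labelled HuRHep-/- (179 to 90.9 mean CPM, -0.93 ± 0.173, adjusted p = 0.0306). In HFCF, limma gave 4 of the 11 at an unadjusted p under 0.05, of which Mlycd (-0.40, adjusted p = 0.0497) was under the fold limit and Aacs (-0.78, adjusted p = 0.0707) did not pass. With diet in WT, Acss2 fell by the same -0.93 and Pgd, of the pentose phosphate pathway, rose (0.70 ± 0.206, adjusted p = 0.0295). In livers labelled HuRHep-/- the diet raised Pgd (1.21 ± 0.206), G6pdx (1.14 ± 0.235) and Tkt (0.65 ± 0.129), all of that pathway. The list had a median diet difference of 0.21 in WT and 0.45 in livers labelled HuRHep-/-. Of the other elongases, desaturases and acyl-CoA synthetases, 1 of 19 was called with diet in WT, beside 9.41% of all genes. In livers labelled HuRHep-/-, 2 were called higher and 1 lower, beside 19.1%, so neither share stood above the background. The desaturase Scd2 rose with diet in WT (2.78 to 7.21 mean CPM, 1.30 ± 0.285) and in livers labelled HuRHep-/- (3.49 to 15.6, 2.18 ± 0.285). There, Elovl7 rose too (2.30 ± 0.534) and Elovl3 fell (-1.79 ± 0.296). In the genotype comparisons, 0 of 18 genes of this list were called in chow (2.23% of all genes) and 1 of 19 in HFCF (3.66%). The latter was Acsl1, an acyl-CoA synthetase, lower in livers labelled HuRHep-/- (959 to 583 mean CPM, -0.75 ± 0.131, adjusted p = 0.0282).

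The targets of SREBP2 moved the other way with diet. Of 22 cholesterol synthesis genes, 10 fell in WT livers (3.24% of all genes were called lower), with a median of -0.66, and 16 fell in livers labelled HuRHep-/- (4.9% of all genes), with a median of -1.10. In WT, Idi1 fell from 112 to 19.8 mean CPM (-2.52 ± 0.208), Cyp51 from 111 to 30.8 (-1.88 ± 0.201) and Tm7sf2 from 172 to 65.0 (-1.43 ± 0.14). In the other genotype, Msmo1 fell from 153 to 29.1 (-2.40 ± 0.171), Idi1 from 126 to 17.6 (-2.85 ± 0.208) and Cyp51 from 106 to 21.4 (-2.33 ± 0.201). In the chow genotype comparison, 2 of the 22 were higher and 1 was lower, with a median of 0.23, beside 1.28% and 0.954% of all genes. Hsd17b7 (0.66 ± 0.102) and Msmo1 (0.73 ± 0.159) were higher in the livers labelled HuRHep-/-, and Tm7sf2 (-0.63 ± 0.0846) was lower. In the HFCF genotype comparison 0 of 22 were called by limma, with 5 at an unadjusted p under 0.05.

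LXR targets were higher with diet where they were called. With diet in WT, 3 of 10 were called and all were higher (median 0.73), beside 6.17% of all genes called higher, and in livers labelled HuRHep-/- 6 were (median 0.80), beside 14.2%. Abcg1, which exports cholesterol to lipoproteins, rose by 1.40 ± 0.195 and 1.58 ± 0.195 in the respective genotypes, and Abcg5, of the canalicular sterol transporter, by 1.14 ± 0.228 and 1.04 ± 0.228. Scd2, counted above, is also on this list and was called in both genotypes. Lipoprotein lipase (Lpl) was higher in the livers labelled HuRHep-/- on chow (19.5 to 53.8 mean CPM, 1.42 ± 0.228, adjusted p = 0.0211), where Scd1 was lower. Of 11 fructose and ChREBP targets, 2 rose in WT (Gpd1, 0.71 ± 0.13, and Fgf21, 1.84 ± 0.355) beside 6.17% of all genes, and 3 in livers labelled HuRHep-/-, beside 14.2%. The latter were ketohexokinase (Khk, 0.70 ± 0.089), Tkfc (0.68 ± 0.138), both enzymes of fructose breakdown, and Fgf21 (1.54 ± 0.355). The genotype comparisons called 0 of the 11 by limma, with 3 at an unadjusted p under 0.05 in each diet.

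**Figure D5:**
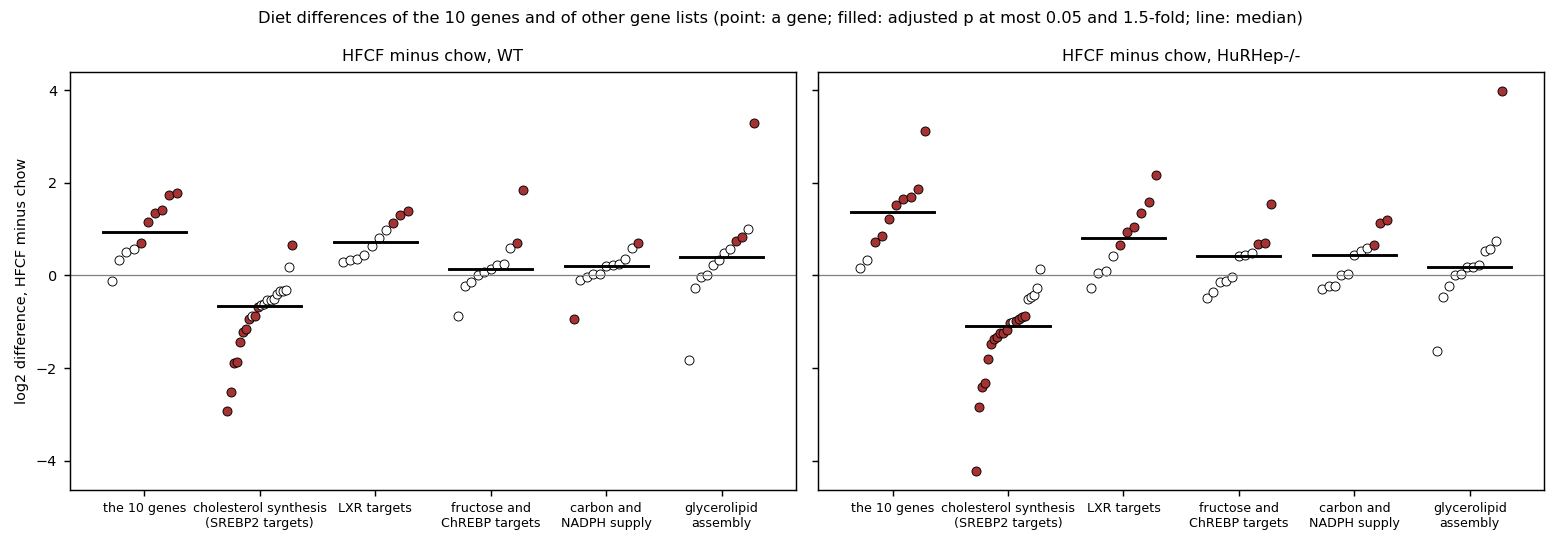
Log2 difference with diet (y axis) of each gene of the set and of 5 other lists, in WT livers and in livers labelled HuRHep-/-, with filled points for genes called and a line at each median. The 10 genes and the LXR targets lie mostly above 0 (medians 0.93 and 0.73 in WT), and the cholesterol synthesis genes mostly below (median -0.66).

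The cell makeup of the samples was read from marker genes, and in bulk tissue fewer cells of a type and less RNA per cell cannot be told apart. The 8 hepatocyte markers were all detected in these livers. Their summed level was 95300 to 116000 CPM in chow WT and 76700 to 87900 in chow HuRHep-/-. In HFCF it was 70900 to 76300 in WT and 61400 to 69200 in HuRHep-/-. The sums did not overlap between genotypes in either diet, and neither did 29.5% of single genes in chow and 36.8% in HFCF. By limma, 0 of the 8 were called between genotypes in chow, with 1 at an unadjusted p under 0.05, and 1 was called in HFCF. In each diet 2 of the 8 were estimated higher, with medians of -0.25 in chow and -0.09 in HFCF. The sum of 7 markers of recruited macrophages was 61.8 to 72.4, 75.6 to 95.9, 92.7 to 205 and 193 to 247 CPM in the same order, with 4 of 7 called higher with diet in WT, beside 6.17% of all genes, and 7 of 7 in livers labelled HuRHep-/-, beside 14.2%. The sum of 5 Kupffer cell markers, the resident macrophages of the liver, was 111 to 136, 160 to 235, 175 to 273 and 227 to 396 CPM. In chow, where Scd1 was called, the sums of both macrophage lists did not overlap between genotypes, and 0 of 5 Kupffer markers were called by limma, with 4 at an unadjusted p under 0.05. Averaged over diets, the Kupffer markers Marco and Cd5l were called higher in the livers labelled HuRHep-/-. With diet, Cd5l and Vsig4 were called higher in WT and Cd5l in livers labelled HuRHep-/-. For 6 stellate cell markers the sums were 155 to 183, 124 to 192, 161 to 364 and 353 to 445 CPM, and for 5 cholangiocyte markers 35.1 to 78.8, 47.0 to 77.3, 38.6 to 87.3 and 133 to 241 CPM. With diet, 1 of 6 stellate markers was called higher in WT and 6 of 6 in livers labelled HuRHep-/-, and 0 of 5 and 5 of 5 cholangiocyte markers were, again beside 6.17% and 14.2% of all genes. In the HFCF genotype comparison, the cholangiocyte keratins Krt19 and Krt7 and the macrophage marker Cd9 were called higher in the livers labelled HuRHep-/-, and the hepatocyte marker Cyp2e1 was called lower. The hepatocyte marker Cps1 was called lower with diet in both genotypes, and Cyp2e1 in livers labelled HuRHep-/-. The 5 lymphocyte markers summed to 1.74 to 2.78, 2.15 to 3.13, 1.74 to 2.77 and 3.62 to 4.54 CPM, and 3 of 5 were called higher with diet in livers labelled HuRHep-/-. The 5 endothelial markers lay between 77.2 and 102 CPM in sum and the 3 erythroid markers between 235 and 687, with overlapping genotypes in chow. With diet in livers labelled HuRHep-/-, Pecam1 was the 1 of 5 endothelial markers called higher, beside 14.2% of all genes. Of 5 exocrine pancreas markers only Cela1 was listed in both tables, and 1 gene does not show that such tissue was present. Cela1 was at 21.2 to 47.2 CPM in chow and 9.31 to 20.4 in HFCF and was called lower with diet in both genotypes. The part of these shifts in the members' differences was not tested. The 4 adipocyte markers listed in both tables summed to 5.56 to 7.79, 5.72 to 8.48, 59.7 to 267 and 30.5 to 50.2 CPM in the same group order. Adipoq, at 0 in all chow HuRHep-/- libraries, had at most 2 counts and Plin1 at most 5 in any library. Cfd, which fat cells also express, was at 0.0616 to 1.31 CPM in chow and 25.5 to 260 CPM in HFCF, highest in HFCF WT replicate 1. Cfd was called higher with diet in both genotypes, and its part in the members' values was not tested.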

How the data were processed

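Total RNA of 12 mouse livers was sequenced by the authors after a stranded library preparation, and reads were mapped and counted per gene with CLC Genomics Workbench against the RefSeq annotation of GRCm38.p6. The deposited values are raw counts per gene and library, written as text with comma separators, in 1 table for chow and 1 for HFCF. Because of that text form they were treated as another kind of value than plain counts and tested on a log scale. Commas were removed and rows were joined by gene identifier. A gene was kept if its CPM matched 10 counts at median depth in 3 or more libraries and its summed count reached 15. Log2 CPM was computed with TMM factors (trims 0.3 and 0.05) and a pseudocount of 0.5, and limma 3.58.1 (R 4.3.3, trended prior variance) gave log2 differences with Benjamini-Hochberg adjustment over all genes tested. Fold changes are on that log2(value + pseudocount) scale. Genotypes were compared within each diet's 6 libraries, and diets and the interaction in a fit of all 12. A gene was called at an adjusted p of at most 0.05, a change of at least 1.5-fold and 10 counts over each group. The code was tested on simulated data first. Library totals set the counting precision. The p-values measure the spread between livers of 1 group.

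The 10 genes and all gene lists were chosen with earlier results of these data known. Named in the text are the 10 genes, Elavl1 and genes overlapping or sharing sequence with a member. Of each list, in the comparisons described, every called gene was to be named up to 4. Above that number it was the 3 with the smallest p, and 2 where none was called. The comparison averaged over diets is not described for most lists. Where fewer are named the others are given by count. A result of the list rule is not reported here. Marker genes of cell types were named after their values were seen. The settings tried were upper-quartile and RLE scaling, other filters, a pseudocount of 2, voom weights, a replicate block, other sets of libraries in the fit, adjusted p alone and leaving out each library.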

Additional observations from a re-analysis of the deposited data

How the results depend on the processing

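Over all alternatives, 1008 of the members' log2 differences stayed on their side of the threshold with no change of sign, 11 passed it newly and 17 no longer passed it. The other 24 changed sign, all of them uncalled values in fits that left out 1 library. Over those fits, the chow genotype difference ran from -0.12 to 0.12 for Acly, -0.12 to 0.04 for Acaca, -0.39 to 0.04 for Acacb and -0.01 to 0.41 for Fasn. In HFCF it ran from -0.31 to 0.05 for Acacb, -0.34 to 0.01 for Elovl5 and -0.18 to 0.02 for Fads1. The diet difference of Acly in WT ran from -0.27 to 0.07. The interaction ran from -0.30 to 0.13 for Srebf1, -0.16 to 0.26 for Acacb and -0.03 to 0.71 for Fasn. The averaged genotype difference ran from -0.03 to 0.08 for Fads1 and from -0.15 to 0.10 for Elovl6, whose estimate of 0.00 has no direction. In chow, the count of members called (1, Scd1) was 0 with a replicate block, where the adjusted p of Scd1 was 0.057, and ran from 0 to 1 when 1 library was left out. Averaged over diets, the count was 2 in place of 1 with adjusted p alone and ran from 1 to 2 when 1 library was left out. The correlation of same-numbered livers' deviations was -0.03, 0.11 and -0.02 in chow and 0.1, 0.21 and 0.09 in HFCF, so equal replicate numbers were not taken as pairs, for which every value had to be over 0.1. In HFCF each liver still correlated best with its own number (highest other values -0.02, -0.07 and 0.03), a hint of pairing from the data and not from the design, while in chow replicates 1 and 3 did not (0.15 and 0.04). The replicate block called 225 genes in chow, where 302 were called without it, 764 in HFCF (523), 1455 with diet in WT (1368) and 2788 with diet in livers labelled HuRHep-/- (2772), and left the other counts of members at 0 in HFCF, 6, 8, 0 for the interaction and 1.

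Counts over all genes depended on single libraries in the genotype comparisons. In chow, 302 genes became 110 without WT replicate 1, 79 without WT replicate 3, 95 without HuRHep-/- replicate 1 and 8 without HuRHep-/- replicate 2. In HFCF, 523 became 39 without WT replicate 1, 848 without WT replicate 3, and 28, 32 and 97 without HuRHep-/- replicates 1, 2 and 3. With diet in WT, 1368 became 850 without chow WT replicate 1 and 873 without HFCF WT replicate 3. The interaction called 2 genes without chow WT replicate 2 and 34 without HFCF WT replicate 3, with 0 members among them. With adjusted p alone the counts were 570 in chow, 978 in HFCF, 3514 and 5650 with diet and 2786 averaged. The cause of these shifts was not tested.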

Other observations

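Glycerolipid assembly is a use to which new fatty acids are put. With diet, 3 of 12 genes of this list rose in WT livers, where 9.41% of all genes were called, namely Mogat1 (0.999 to 10 mean CPM, 3.30 on the log2 scale, adjusted p = 0.000406 with limma), Agpat2 (0.75, adjusted p = 0.00145) and Gpat3 (0.83, adjusted p = 0.00678). In livers labelled HuRHep-/-, Mogat1 rose by 3.99 (adjusted p = 7.99e-05) and was the 1 of 12 called, where 19.1% of all genes were. In HFCF, Gpat3 was lower in the livers labelled HuRHep-/- (-0.76, adjusted p = 0.0479). The list's diet median was 0.41 and 0.19 in these comparisons. Mogat1 and Gpat3 encode acyltransferases that add fatty acids to a glycerol backbone.

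Genes that follow feeding and the time of day were read because lipogenic mRNA follows both. Of 12 fasting and feeding genes, Fgf21 and Pdk4 (2.14, adjusted p = 0.0122) rose with diet in WT, where 9.41% of all genes were called. In livers labelled HuRHep-/-, where 19.1% were, Fgf21 and Pdk4 (1.76, adjusted p = 0.0187) rose and Ppargc1a fell (-0.91, adjusted p = 0.0241). Both genotype comparisons called 0 of these 12 with limma, with 2 at an unadjusted p under 0.05 in each. Of the clock genes, Cry1 was lower in HFCF livers labelled HuRHep-/- (-0.78, adjusted p = 0.0409), and both diet comparisons called 0 of 12, with 2 and 3 at an unadjusted p under 0.05. The part of feeding state or sampling time in the members' values was not tested.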
